A study of Rangifer tarandus with 4 samples.

Results

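The genes described here are the 10 class II genes of the major histocompatibility complex of cattle (BoLA) that the gene annotation deposited with the study names with the prefix BOLA-D. They were chosen by symbol and chromosome: every gene line on chromosome 23 whose symbol starts with BOLA-D, which found 10 of the 21880 genes in the annotation. The study profiled mononuclear blood cells of reindeer (Rangifer tarandus) 3 days after wounding by single-cell RNA sequencing from the 3′ end of transcripts. It set 2 libraries of blood from the saphenous vein, labelled back, beside 2 libraries of blood from the distal antler velvet, labelled antler, with 12000 cells loaded for each. Apart from the wounding, which all 4 libraries share, the labels give no strain, genotype, treatment or age for these animals. The cell-by-gene counts were not analysed here, so the results concern the gene models and not expression, and antler is not compared with back. All positions are on the cattle assembly ARS-UCD1.2, count from 1, and are not reindeer positions.

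Class II molecules are pairs of an alpha and a beta chain that sit in the membrane of B cells, dendritic cells and monocytes and hold up peptides for CD4+ T cells. In each chain a leader peptide is followed by an outer domain that forms one wall of the peptide groove, an immunoglobulin-like domain next to the membrane, and a connecting, transmembrane and cytoplasmic tail. DR and DQ are the classical molecules that present peptides, DM exchanges peptides inside the cell, DO restrains DM, and DY is a pair known from ruminants. In ruminants the class II region is known to be split into a class IIa part with DR and DQ and a class IIb part with DY, DM, DO and the peptide transporter genes, whereas most mammals have a single class II region.

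The 10 genes lay in 2 blocks. The class IIb block held 6 of them (BOLA-DYA, BOLA-DYB, BOLA-DOB, BOLA-DMB, BOLA-DMA and BOLA-DOA) and ran from 7072118 to 7323441 on chromosome 23, a length of 251 kb. The class IIa block held the other 4 (BOLA-DQB, BOLA-DQA5, BOLA-DQA1 and BOLA-DRA) and ran from 25607502 to 25843155, a length of 236 kb. Between the end of one block and the start of the other lay 18.3 Mb with 246 of the 708 genes of the chromosome. The widest gap between neighbouring members inside a block was 142056 bases, between BOLA-DQA1 and BOLA-DRA. With a smaller limit of 100 kb in place of 1 Mb, the same genes fell into 4 blocks, because the gap that holds the TAP and PSMB genes and the gap that holds the unnamed genes before BOLA-DRA then counted as breaks.

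**Figure D1:**
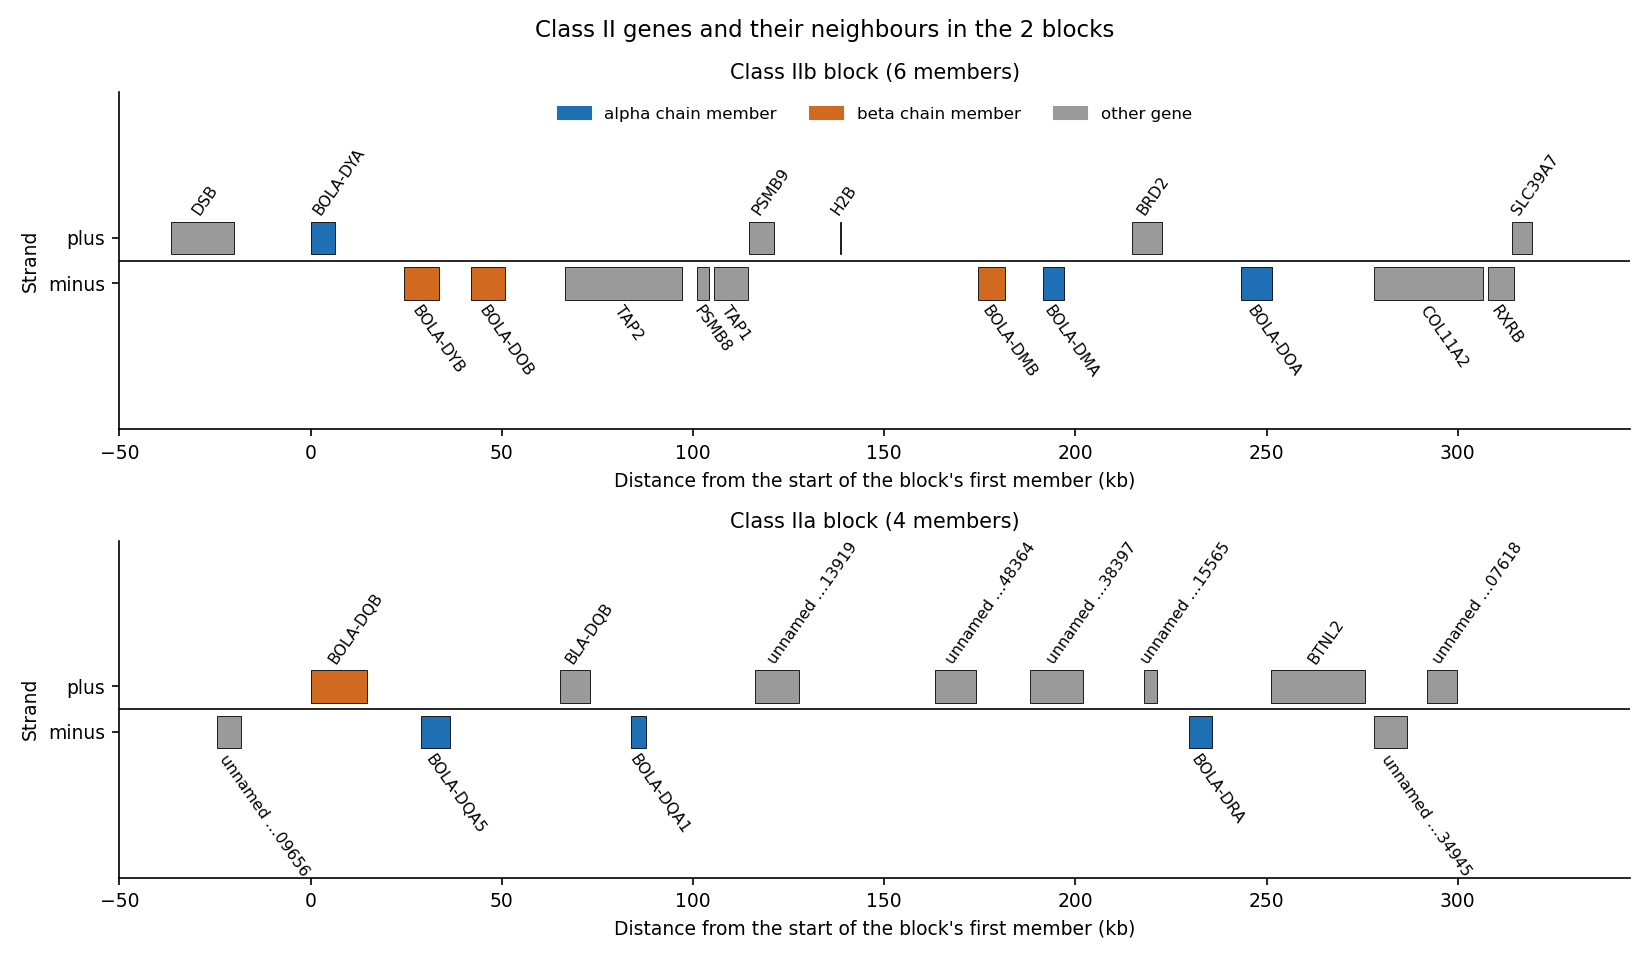
Gene models of both blocks, drawn by strand against the distance in kb from the start of each block's first member; blue and orange boxes are alpha and beta chain members, and grey boxes are other genes within the drawn range (unnamed genes by the last digits of their identifier). In the class IIb block 5 of 6 members lie on the minus strand, and in the class IIa block 3 of 4. The other genes inside the class IIa block all lie on the plus strand.

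By strand, 8 of 10 members were read from minus, and BOLA-DYA and BOLA-DQB from plus. The share of all genes on the minus strand was not computed, so the count is description only. It also depends on the prefix. In the class IIa block the alpha members were on the minus strand. BOLA-DQB and all genes of that block outside the prefix, among them BLA-DQB, were on the plus strand. BOLA-DYA and BOLA-DQB each lay tail to tail with the next member, a gene of the other chain. BOLA-DYA and its partner BOLA-DYB faced each other with their 3′ ends 18055 bases apart and no gene between them. BOLA-DQB and BOLA-DQA5 faced each other in the same way across 14104 bases. So did BLA-DQB, a gene outside the prefix, and BOLA-DQA1 across 10752 bases. The DM pair instead ran in tandem, with BOLA-DMB downstream of BOLA-DMA at a distance of 9842 bases. The DO pair was not adjacent: BOLA-DOB and BOLA-DOA lay near opposite ends of the class IIb block, with the DM pair between them. For BOLA-DRA the prefix found no DR beta gene, and the class IIa members were 3 alpha chains and 1 beta chain.

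The class IIb block contained 6 other genes, all with a symbol. TAP2, PSMB8, TAP1 and PSMB9, which encode the peptide transporter and proteasome subunits of class I presentation, stood between BOLA-DOB and BOLA-DMB together with the histone gene H2B, and BRD2, a bromodomain gene, stood between BOLA-DMA and BOLA-DOA. The block was flanked by KLHL31, GCLC and DSB on one side and by COL11A2, RXRB and SLC39A7 on the other. The class IIa block contained 5 other genes, of which only BLA-DQB carried a symbol. The other 4 were ENSBTAG00000013919, ENSBTAG00000048364, ENSBTAG00000038397 and ENSBTAG00000015565, all on the plus strand between BOLA-DQA1 and BOLA-DRA. Flanking genes were GCM1, ELOVL5 and the unnamed ENSBTAG00000009656 on the BOLA-DQB side, and BTNL2 with the unnamed ENSBTAG00000034945 and ENSBTAG00000007618 on the BOLA-DRA side. The prefix rule therefore leaves out genes in and beside the blocks that carry another symbol or none; with DSB and BLA-DQB added by symbol, 12 genes were found.

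Several coding exon lengths recurred among the 10 members, and the DM genes stood apart. In the transcript with the longest coding sequence, the members had 4 to 6 coding exons, a median of 5 against 8 in the 16808 named protein-coding genes, and a coding length of 750 to 891 bases, a median of 771 against 1344 bases. All coding lengths below leave out the stop codon. Coding exon 3, which in class II genes encodes the immunoglobulin-like domain, measured exactly 282 bases in 8 of 10 members. The exceptions were the DM genes, with 279 bases in BOLA-DMA and 285 bases in BOLA-DMB. A coding exon of 282 bases at any place occurred in 9 of 10 members, since BOLA-DMB has one as its second coding exon. It occurred in 0.684% of named protein-coding genes (115 of 16808) and in 2.71% of those on chromosome 23, members included. BTNL2, ENSBTAG00000034945 and ENSBTAG00000007618, which flank the class IIa block, also had such an exon. The members are related genes fixed by name, so no test was made of this or of the other shares below.

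**Figure D2:**
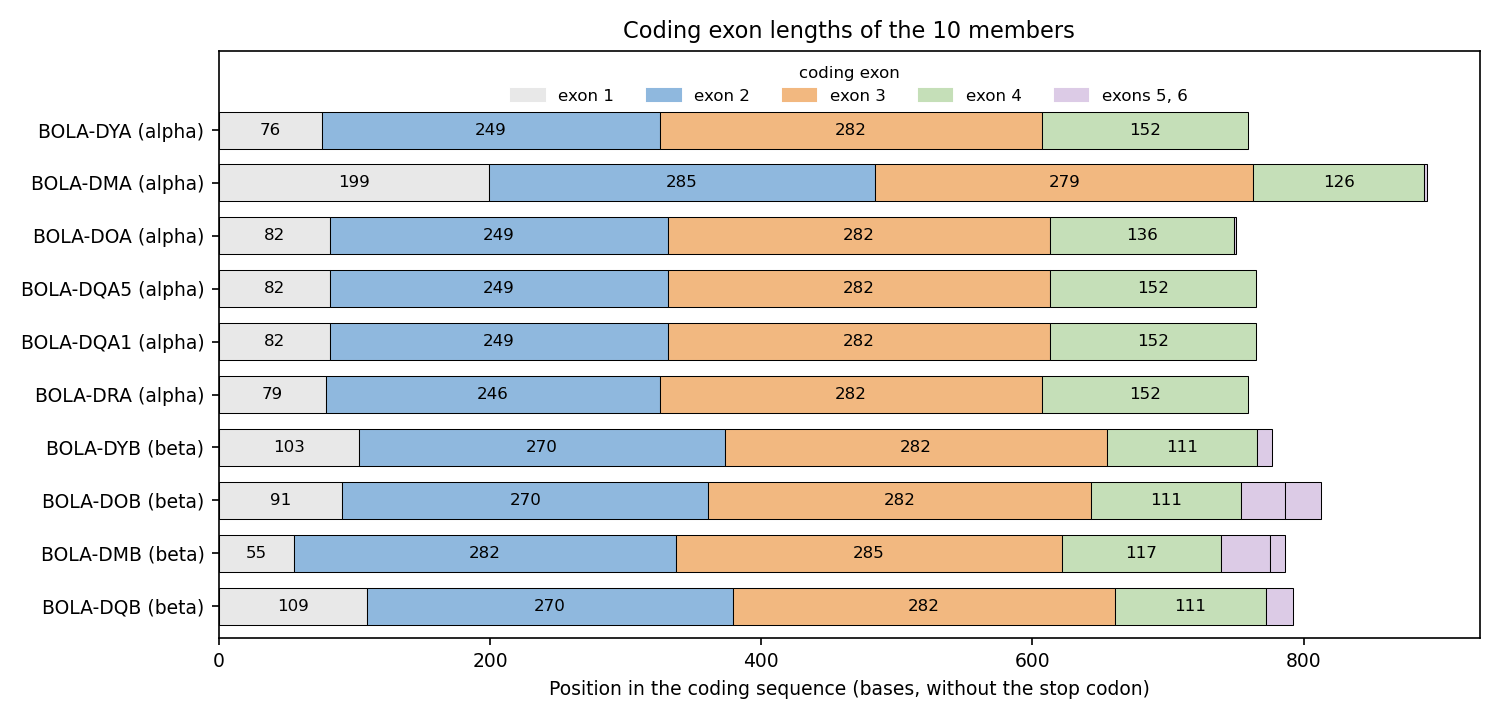
Coding exons of the transcript with the longest coding sequence of each member, as boxes along the coding sequence in bases, alpha chains above and beta chains below; numbers give lengths of 40 bases or more. The third box is 282 bases in 8 members, the second is 249 or 246 bases in 5 alpha chains and 270 bases in 3 beta chains, and both DM genes differ.

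Alpha and beta chains differed in the second coding exon, which encodes the outer domain of the groove. It measured 249 bases in BOLA-DYA, BOLA-DOA, BOLA-DQA5 and BOLA-DQA1 and 246 bases, 1 codon less, in BOLA-DRA. In the beta chains BOLA-DYB, BOLA-DOB and BOLA-DQB it measured 270 bases. The DM genes again stood apart with 285 bases in BOLA-DMA and 282 bases in BOLA-DMB. The fourth coding exon, for the connecting and transmembrane part, also went by chain: 152 bases in BOLA-DYA, BOLA-DQA5, BOLA-DQA1 and BOLA-DRA, 136 in BOLA-DOA and 126 in BOLA-DMA, against 111 bases in BOLA-DYB, BOLA-DOB and BOLA-DQB and 117 in BOLA-DMB. Lengths at these positions did not go by block: BOLA-DYA of the class IIb block had the exons of the DQ alpha chains, and BOLA-DYB and BOLA-DOB had those of BOLA-DQB.

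The first coding exon, with the leader peptide, varied more. It was 82 bases in BOLA-DOA, BOLA-DQA5 and BOLA-DQA1, 79 in BOLA-DRA and 76 in BOLA-DYA, and 91 to 109 bases in the beta chains other than BOLA-DMB, which had 55. BOLA-DMA had 199 bases in its first coding exon and no 5′ UTR, so that its model begins with the start codon. It was also the longest member, with 297 codons; the other members had 250 to 271.

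The positions of the coding junctions within codons were shared as well. The first 3 junctions fell after the first base of a codon in 10 of 10 members. This was so in 7.01% of the 13315 named protein-coding genes with at least 4 coding exons, and in 9.44% of those on chromosome 23. Over all junctions this held for 8 of 10 members, against 1.93% of those genes and 5.36% of those on chromosome 23. The exceptions were the DO genes, whose last coding junction falls elsewhere in the codon: after the second base in BOLA-DOA and between codons in BOLA-DOB. In the longest coding transcripts of the flanking BTNL2, ENSBTAG00000034945 and ENSBTAG00000007618, all coding junctions also fell after the first base. The same held for BLA-DQB, ENSBTAG00000013919 and ENSBTAG00000038397 inside the class IIa block and for DSB beside the class IIb block. The shares of named genes given above include the members. Exons that begin and end after the first base of a codon are common in immunoglobulin-like domains.

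The pair of lengths of coding exons 2 and 3 was looked up in all 21861 protein-coding genes, a search chosen after the lengths of the members were seen. The pair 249 and 282 bases occurred as neighbouring coding exons in 4 genes, which were the 4 members named above, and the pair 246 and 282 in BOLA-DRA alone. Single lengths were more common: a coding exon of 249 bases was present in 186 genes and one of 282 bases in 137. The pair 270 and 282 bases occurred in 7 genes. These were 3 members, then BLA-DQB, ENSBTAG00000013919 and ENSBTAG00000038397 of the class IIa block, and KIT, a receptor tyrosine kinase gene on chromosome 6. The pair 282 and 285 occurred in BOLA-DMB alone. The pair 285 and 279 occurred in BOLA-DMA and in NCR1, an activating receptor of NK cells with immunoglobulin-like domains, on chromosome 18. In all, 15 genes had one of the 5 pairs, 13 of them on chromosome 23. The 10 members are in both counts by construction, because the pairs were taken from them and the rule fixes their chromosome. Of the genes outside the prefix, BLA-DQB, ENSBTAG00000013919 and ENSBTAG00000038397 were on chromosome 23, and KIT and NCR1 were not. With every transcript read, DSB beside the class IIb block was added by a transcript of 756 coding bases with exons of 100, 270, 282 and 104 bases.

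Of the class IIa genes outside the prefix, 3 had the lengths of BOLA-DYB, BOLA-DOB and BOLA-DQB in coding exons 2 to 4. BLA-DQB had coding exons of 109, 270, 282, 111 and 11 bases, the same as 1 of the 3 transcripts of BOLA-DQB. ENSBTAG00000013919 had 100, 270, 282, 111, 24 and 11 bases, and ENSBTAG00000038397 had 67, 270, 282, 111 and 35 bases. The other unnamed genes of the block did not: ENSBTAG00000048364 had 4 transcripts with no coding exon pair of these lengths, and ENSBTAG00000015565 had 2 coding exons of 22 and 404 bases. ENSBTAG00000009656, just outside the block, had a transcript with exons of 82, 249, 279 and 152 bases, which is the alpha chain series with the third exon 1 codon shorter. No gene name is given to these identifiers here.

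Intron lengths varied widely. The 43 introns of the transcripts with the longest coding sequence ranged from 95 bases, the third intron of BOLA-DOA, to 7359 bases, the second intron of BOLA-DQB, with a median of 644 bases. The first intron, after the leader exon, was the longest in 8 of 10 members, against 39.0% of the 13711 named protein-coding genes with at least 3 introns. In BOLA-DMB and BOLA-DQB the second intron was longer. BOLA-DQA5 and BOLA-DQA1, whose coding exons had the same 4 lengths, had first introns of 3404 and 2067 bases and second introns of 2057 and 447 bases. Their later introns differed by far less, with 237 and 241 bases in intron 3 and 171 and 151 bases in intron 4.

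**Figure D3:**
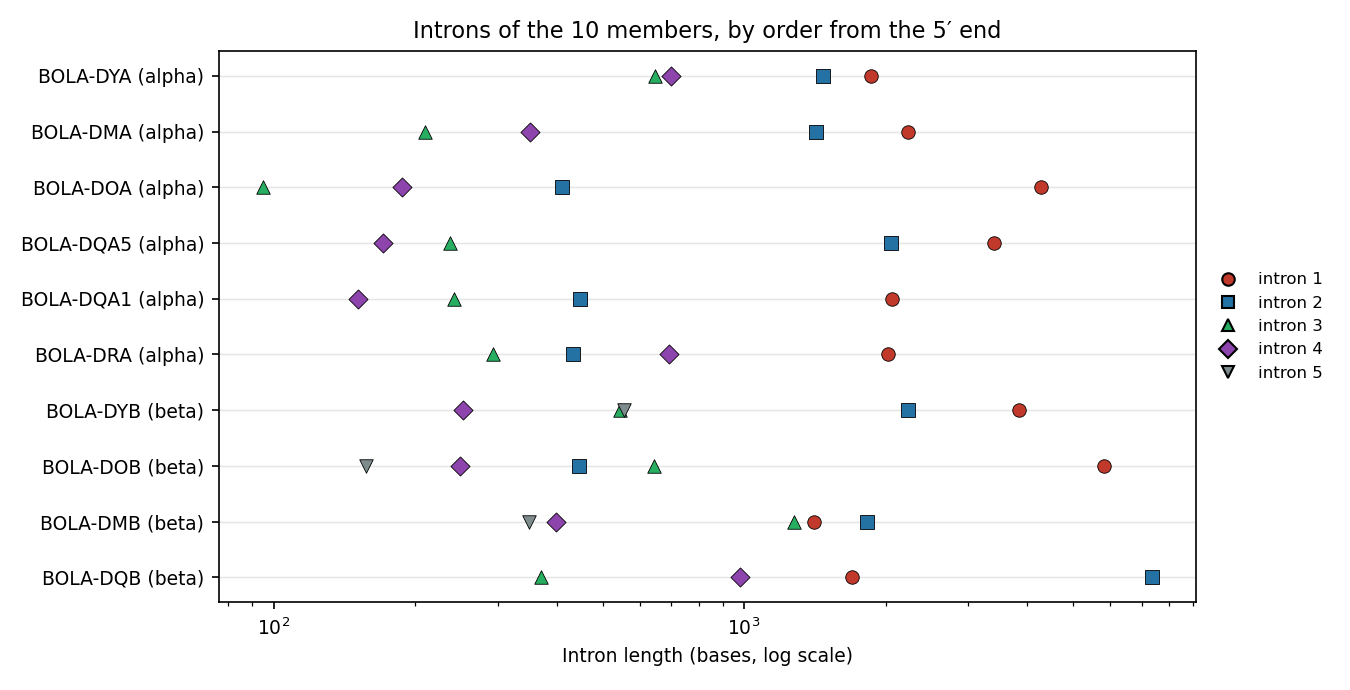
Length of each intron on a log scale in bases, 1 row per member, in the transcript with the longest coding sequence; the marker shape gives the order of the intron from the 5′ end. The first intron is the longest in 8 rows, and the second in BOLA-DMB and BOLA-DQB.

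The gene span, read from the gene line over all transcripts, varied as well. BOLA-DQB covered 14649 bases, the most of the 10, and BOLA-DQA1 covered 4038, the fewest. The median span was 7439 bases, against 21004.5 bases in named protein-coding genes and 12231 bases in those of chromosome 23. The median over the 6 class IIb members was 7568.5 bases and over the 4 class IIa members 6713.5 bases, a difference small beside the range within the class IIa block. Beta chains spanned more than alpha chains at the median, with 8947.5 against 6075 bases, and BOLA-DMB, the shortest beta gene with 7254 bases, was shorter than the alpha genes BOLA-DOA (7883 bases) and BOLA-DQA5 (7624 bases).

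Because the libraries were read from the 3′ end, the last exon and the 3′ UTR are the parts of a model where most reads of a gene are expected. All 10 members had a 3′ UTR in at least 1 transcript, against 79.8% of named protein-coding genes. The longest 3′ UTR of each gene ranged from 317 bases in BOLA-DQA1 to 2095 bases in BOLA-DOA, with a median of 701.5 bases against 649 bases in the named genes that had one. At the median it was 877 bases in the class IIb block and 512.5 bases in the class IIa block, but the blocks overlapped: BOLA-DRA of class IIa had 1460 bases, and BOLA-DMA and BOLA-DMB of class IIb had 387 and 593.

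In the class IIa block the classical DR alpha gene had by far the longest 3′ UTR. BOLA-DRA (ENSBTAG00000010645, 25837353 to 25843155, minus strand) encodes the alpha chain of DR; its single transcript had 5 exons, 253 codons, a 5′ UTR of 146 bases and the 3′ UTR of 1460 bases given above. The DQ alpha genes were shorter at that end. BOLA-DQA5 (ENSBTAG00000038128, 25636255 to 25643878, minus strand) had 3 transcripts with 3′ UTRs of 328, 508 and 0 bases, and BOLA-DQA1 (ENSBTAG00000037605, 25691259 to 25695296, minus strand) had 1 transcript with 317 bases. BOLA-DQB (ENSBTAG00000021077, 25607502 to 25622150, plus strand), the DQ beta chain, had 3 transcripts with the same first 4 coding exons. Its last coding exon was 20 bases in 2 of them, which end at the stop codon with no 3′ UTR and no 5′ UTR. It was 11 bases in the third, which had 517 bases of 3′ UTR. The 3 last exons lay at different places. The fourth intron measured 979 and 4346 bases before the exons of 20 bases, and 2544 bases before the exon of 11.

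In the class IIb block the DY genes had similar 3′ ends. BOLA-DYA (ENSBTAG00000002581, 7072118 to 7078464, plus strand) had 2 transcripts with 836 and 944 bases, and BOLA-DYB (ENSBTAG00000045923, 7096520 to 7105588, minus strand) had 1 transcript with 810 bases. The DM genes, BOLA-DMA (ENSBTAG00000015730, 7263678 to 7269167, minus strand) and BOLA-DMB (ENSBTAG00000012451, 7246582 to 7253835, minus strand), had 1 transcript each. BOLA-DMB carried a 5′ UTR of 614 bases, the longest of the members, whose other 5′ UTRs reached at most 146 bases; named genes with a 5′ UTR had a median of 211 bases. Of the DO genes, BOLA-DOA (ENSBTAG00000006490, 7315559 to 7323441, minus strand), the alpha chain, had 1 transcript, with a 3′ UTR longer than that of 91.3% of the named genes that had one. BOLA-DOB (ENSBTAG00000047707, 7114058 to 7122883, minus strand), the beta chain, had 3 transcripts with 589, 1043 and 1702 bases.

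**Figure D4:**
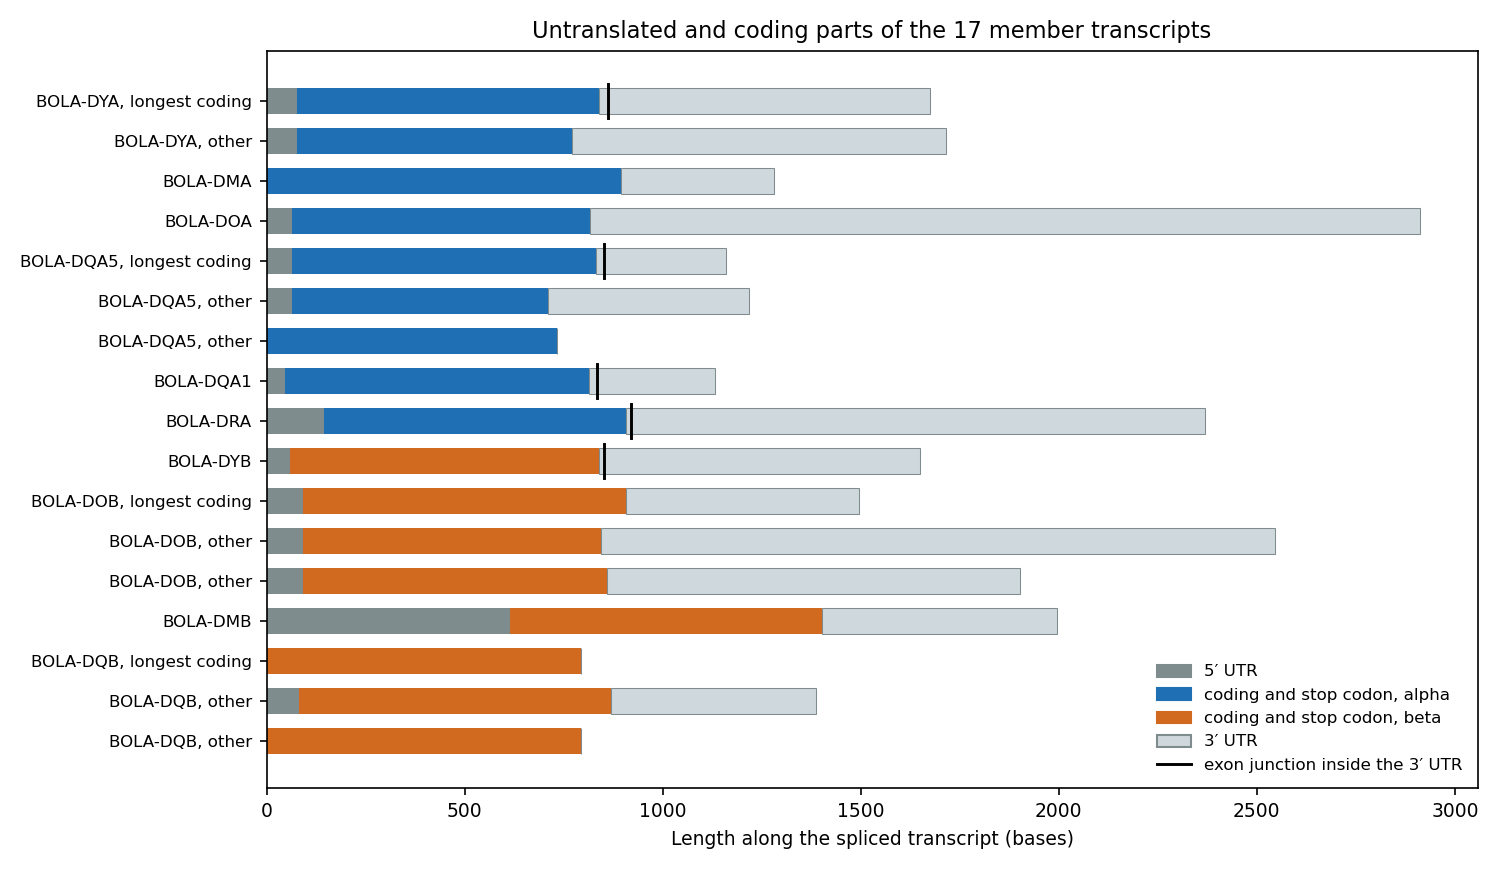
The 5′ UTR, coding part with stop codon, and 3′ UTR of all 17 member transcripts in bases along the spliced transcript; a black line marks an exon junction inside the 3′ UTR, and "longest coding" marks the transcript read for exon structure where a gene has several. BOLA-DOA and one transcript of BOLA-DOB have the longest 3′ UTRs (2095 and 1702 bases), 3 transcripts have none, and 5 have a junction just after the stop codon.

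An exon junction shortly after the stop codon was frequent among the members. In the transcript with the longest coding sequence, the 3′ UTR was split over more than 1 exon in 5 of 10 members, against 3.29% of named protein-coding genes (553 of 16808). These were BOLA-DYA, BOLA-DYB, BOLA-DQA5, BOLA-DQA1 and BOLA-DRA, which come from both blocks. The part before the junction measured 23, 14, 20, 19 and 11 bases in that order, close to the median of 18 bases among the 553 genes. The whole final exon was therefore untranslated, with 813 bases in BOLA-DYA, 796 in BOLA-DYB, 308 in BOLA-DQA5, 298 in BOLA-DQA1 and 1449 in BOLA-DRA.

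In the other members the final exon held few coding bases: 1 in BOLA-DOA, 2 in BOLA-DMA, 11 in BOLA-DMB, 20 in BOLA-DQB and 27 in BOLA-DOB. In BOLA-DQB these 20 bases and the stop codon were the whole exon of 23 bases. The median of the 10 members was 0.5 coding bases there, against 155 bases in the 16071 named protein-coding genes with at least 2 exons. Of those genes, 8.07% had at most 27 coding bases in the final exon. That limit is the members' own maximum, so all 10 meet it by construction. Apart from BOLA-DQB, whose longest coding transcript ends at its stop codon, each member's final exon held 298 to 2095 bases of 3′ UTR.

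In all 4 members with several transcripts (BOLA-DYA, BOLA-DOB, BOLA-DQA5 and BOLA-DQB) the longest 3′ UTR belonged to a transcript other than the one with the longest coding sequence, and the coding sequence there ended elsewhere. In that transcript of BOLA-DYA the third coding exon ran 83 coding bases past its usual 282, the protein ended at 230 codons instead of 253, and 152 of the 944 bases of the 3′ UTR were coding bases of the other transcript. In BOLA-DOB the third coding exon ran 107 bases past 282 in the transcript of 1702 bases, which ended at 250 codons instead of 271. Of those 1702 bases, 181 were coding in other transcripts of the gene and 534 were not exonic in any of them. The remaining BOLA-DOB transcript ran 11 bases past the usual 111 of the fourth coding exon and ended at 255 codons. In BOLA-DQA5 the transcript with 508 bases had 29 bases in place of 152 in coding exon 4 and ended at 214 codons instead of 255. In BOLA-DQB the transcript with 517 bases, described above, had 261 codons instead of 264. Read in the transcript with the longest coding sequence alone, 9 of 10 members had a 3′ UTR, against 71.9% of named protein-coding genes, and BOLA-DQB did not.

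Other features were near the background. More than 1 transcript was annotated for 4 of 10 members, against 46.1% of named protein-coding genes, and a 5′ UTR for 9 of 10, against 80.6%. All 17 member transcripts had a start and a stop codon and a coding length in whole codons. Overlap of exons with a neighbour was found for 0 of 10 members on their own strand, against 1.81% of named protein-coding genes, and for 0 of 10 on either strand, against 9.16%. The next gene beyond the 3′ end lay 8469 to 35646 bases away on either strand, and on the same strand from 8469 bases (BOLA-DOB, followed by BOLA-DYB) to 368453 bases (BOLA-DYB, followed by LRRC1). Sequence similarity between members, which decides whether a read can be assigned to 1 of them, was not analysed here.

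Genes that act on class II molecules, and neighbours of the blocks, were looked up by symbol. Of 33 symbols in a list of class II regulators, invariant chain, proteases, co-receptors and neighbours, 32 were matched, to 33 genes. MARCHF1, another name of MARCH1, was not matched. A 3′ UTR was annotated in 29 of the 33 genes, against 79.8% of named protein-coding genes. The median length was 543 bases, against 649 bases in the named genes that had one. CIITA, the transactivator of class II genes, lay on chromosome 25 and had 31 bases of 3′ UTR, while CD74, the invariant chain that occupies the groove before DM acts, lay on chromosome 7 and had 622 bases. Chromosome 23 held 708 of the 21880 genes of the annotation and 2 of the 23 presentation genes. These were NFYA, a subunit of a factor that binds class II promoters, with 542 bases, in the stretch between the blocks, and CD83, which keeps class II molecules at the surface, with 2482 bases, the longest of the list. TAP1, TAP2, PSMB8, PSMB9 and BRD2 had 432, 549, 227, 52 and 617 bases. The genes listed for the class III side of the region, BTNL2, NOTCH4, C4A and AGER, had 520, 584, 257 and 344 bases, and TNXB, RFXAP, MARCH1 and 1 of 2 genes named NFYB had none.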

How the data were processed

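Libraries were grouped by the labelled tissue. The submitters' processing notes name Seurat, STAR and Cell Ranger 3. The file used was the gene annotation the authors deposited, whose values are positions of features in bases, of another kind than counts and of no sample. Its build is ARS-UCD1.2, per the file headers. Its use on the reindeer reads is not described in the labels.

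Members are the gene lines of chromosome 23 with the prefix BOLA-D; a gap over 1 Mb splits blocks. Exon structure was read from the transcript with the longest coding sequence (ties by exon bases, then identifier), and UTR lengths, unless stated, as the longest over transcripts. Chains were told apart by the last letter of the symbol. Named genes are protein-coding genes with a symbol. All members, all genes in the blocks, 3 flanking genes a side and the pathway list are named. Members and lists were chosen with earlier results of these data known. No test was made, because gene models are not replicates. KIT and NCR1 were named after their values were seen. No sequence was used. The reader was tested on a simulated annotation. The tools were Python 3.11.15, NumPy 2.4.6, SciPy 1.17.1 and matplotlib 3.10.9.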

Additional observations from a re-analysis of the deposited data

How the results depend on the processing

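No paired analysis was possible because the results come from a gene annotation and from no test. Read in the transcript with the longest coding sequence, the median 3′ UTR of the members moved from 701.5 to 591 bases, the difference between the blocks (class IIa minus class IIb) from −364.5 to −379 bases, and the difference in median span from −855 to −1152.5 bases. A gap of 100 kb in place of 1 Mb gave 4 blocks, and 5 Mb gave 2. Over all protein-coding genes, named or not, the share with a 3′ UTR was 65.5% and the median 626 bases; over named genes of chromosome 23 the share was 78.9%. All 10 members kept a 3′ UTR at a minimum of 50 or 200 bases. The other alternatives, among them the wider symbols and either strand, gave the same count or one within 1.5 times. The search for exon pairs and its reading of every transcript (16 genes in place of 15) were chosen after the data were seen. The limit of 27 coding bases in the final exon was taken from the members themselves. Medians over 4 and 6 genes rest on few values.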
